A study of Mus musculus with 24 samples.

Results

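The genes described here are 9 genes of the B cell antigen receptor and the B lineage, namely Vpreb3, Cd79a, Cd79b, Ms4a1, Cd22, Cd72, Blnk, Pou2af1 and Pax5. They were picked by name, as the probes of the scanner files that carry one of these gene names, out of 24325 gene symbols on the array. All 9 were on the array, and all 9 were among the 13070 genes bright enough to be tested. RNA from whole blood of male 129S/J mice was hybridised to 24 one-colour Agilent arrays, 1 mouse to an array. The groups were Parp1-/- mice at 6 Gy of X rays (n = 5), Parp1-/- mice at 0 Gy (n = 5), and wild-type mice at 0 Gy (n = 5), 6 Gy (n = 5) and 8.8 Gy (n = 4). All blood was drawn 24 h after exposure, and the 0 Gy mice were sham-irradiated. The doses of 6 Gy in Parp1-/- mice and 8.8 Gy in wild-type mice are those that kill 50% of the mice within 30 days, per the series design. The age of the mice, and the part of Parp1 that the knockout allele lacks, are not given in the sources used here. Whole blood mixes B cells with all other blood cells, so in these data fewer B cells and less of a transcript per B cell cannot be told apart.

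The B cell antigen receptor is a membrane immunoglobulin bound to a signalling pair, CD79A and CD79B, whose tails recruit kinases when antigen binds. The adaptor BLNK passes that signal on, while surface proteins such as CD22 and CD72 dampen it. The genes are switched on as a precursor commits to the B lineage under PAX5 and EBF1, and resting B cells are among the most radiosensitive cells of blood.

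Promoter windows of 3 genes are shown because they hold short motifs tied to the B lineage. These are the octamer (ATGCAAAT, or ATTTGCAT on the other strand), which POU2AF1 binds together with OCT factors, and the core of the EBF1 site (CCCNNGGG, the same on both strands). Each window holds the 250 bases before the RefSeq gene start in GRCm38.p6, read 5′ to 3′ on the gene's strand, with the motif in capitals. The octamer lies 45 bases upstream of the start in Vpreb3 (chr10:75948050-75948299, plus strand) and 130 bases upstream in Blnk (chr19:40994222-40994471, minus strand). The EBF1 core lies 48 bases upstream in Cd22 (chr7:30879029-30879278, minus strand).
Vpreb3: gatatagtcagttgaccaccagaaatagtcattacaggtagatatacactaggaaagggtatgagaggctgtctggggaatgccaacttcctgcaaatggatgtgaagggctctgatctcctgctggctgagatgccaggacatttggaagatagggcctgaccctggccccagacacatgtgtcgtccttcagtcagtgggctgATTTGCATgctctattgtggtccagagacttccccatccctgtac
Blnk: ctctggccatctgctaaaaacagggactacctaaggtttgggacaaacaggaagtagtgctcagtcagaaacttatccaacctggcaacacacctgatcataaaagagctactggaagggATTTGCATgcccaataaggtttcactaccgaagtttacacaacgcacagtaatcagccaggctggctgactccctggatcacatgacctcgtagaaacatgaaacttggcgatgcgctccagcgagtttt
Cd22: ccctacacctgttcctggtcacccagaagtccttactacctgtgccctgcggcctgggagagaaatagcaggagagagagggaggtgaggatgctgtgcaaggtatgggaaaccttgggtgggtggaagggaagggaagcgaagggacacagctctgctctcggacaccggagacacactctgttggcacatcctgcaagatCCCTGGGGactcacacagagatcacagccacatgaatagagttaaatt
The RefSeq table held 7 of the 9 genes. The octamer was in 2 of these 7, against 1.6% of all 32851 windows of this length, and the EBF1 core in 1 of 7, against 11.8% of windows. An E-box (CAGNTG, either strand) was in 5 of 7, against 44.8% of windows, and a PU.1-like motif (GAGGAA, either strand) in 2 of 7, Cd79a and Cd72, against 23.3%. These matches describe the letters of the windows and no binding was measured.

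Values are log2 processed signals minus the array's 75th percentile, so a level of 0 is the level that 75% of the array's spots do not exceed. They compare 1 gene between arrays, not genes with each other. Between 36.5% and 57.6% of probes per array were well above background, with a mean of 47.4% ± 3.89 in Parp1-/- 6 Gy, 39.1% ± 2.36 in Parp1-/- 0 Gy and 48.8% ± 6.51 in wild-type 0 Gy arrays (SD, n = 5 each). The arrays lay on 10 slides, scanned over 4 days. Parp1-/- 6 Gy arrays came from days 1, 3 and 4 and Parp1-/- 0 Gy arrays from days 1 and 2, while day 4 held every wild-type sham array and day 3 every irradiated wild-type array. Parp1 itself was -1.67, -3.45, -5.01, -3.82 and -4.67 on the arrays labelled Parp1-/- 6 Gy and -2.29, -2.80, -3.82, -2.90 and -3.17 on those labelled Parp1-/- 0 Gy. It was -0.35, -0.49, -0.59, -0.94 and -0.72 on the wild-type arrays at 0 Gy, -1.27, -2.33, -1.88, -1.51 and -2.06 at 6 Gy and -1.25, -1.56, -1.58 and -3.94 at 8.8 Gy. Of the 10 arrays labelled Parp1-/-, only 6 Gy replicate 1 had Parp1 well above background. Among wild-type arrays, 6 Gy replicates 1 and 2 and the array labelled 8.8 Gy replicate 4 did not pass that mark. The closest of all 276 pairs of arrays joined the one labelled Parp1-/- 6 Gy replicate 1 to the one labelled wild-type 8.8 Gy replicate 2, with an SD of log2 differences of 0.166 over 10787 probes, against a median of 0.901. Results are also given without these arrays. The mean log2 level of 8 hepatocyte markers ran from -1.79 to 8.22 over the arrays and varied widely within every group.

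Irradiation was followed by lower levels of most of these genes in both genotypes. The same 7 genes, Vpreb3, Cd79a, Cd79b, Ms4a1, Cd72, Blnk and Pou2af1, fell in Parp1-/- blood at 6 Gy and in wild-type blood at 6 Gy and at 8.8 Gy (limma, adjusted p under 0.05). Of all genes tested, 10.6% were called lower in Parp1-/- blood at 6 Gy, 10.7% in wild-type blood at 6 Gy and 8.87% at 8.8 Gy. Called higher were 12.2%, 15.8% and 7.25%, and called in either direction 22.8%, 26.5% and 16.1%, in the same order. For these 7 genes every irradiated array lay below every sham array of its genotype, as it did for 6.13% of all genes tested in Parp1-/- blood at 6 Gy and for 9.43% and 11.2% in wild-type blood at 6 and 8.8 Gy. The Cd79a fall rests on a probe that the files place on chromosome 12, while the second Cd79a probe was called in none of the 3 comparisons. Cd22 and Pax5 were called in none of the 3 comparisons. The median log2 difference of the 9 genes was -2.69 in Parp1-/- blood at 6 Gy, -2.34 in wild-type blood at 6 Gy and -3.30 at 8.8 Gy, and over all genes tested it was -0.08, 0.05 and 0.04. Both wild-type comparisons use the same 5 sham arrays.

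Cd79a and Cd79b encode the signalling chains of the receptor, and Vpreb3 encodes a protein that binds newly made immunoglobulin light chains in the endoplasmic reticulum. Replicates are listed from 1 upwards throughout. Vpreb3 log2 levels were -3.53, -2.02, -2.80, -3.46 and -2.74 on the Parp1-/- 6 Gy arrays, against 1.03, 1.64, 0.91, 2.08 and 1.76 on the Parp1-/- 0 Gy arrays. In wild-type blood levels were 1.31, 2.05, 1.63, 1.93 and 2.22 at 0 Gy, -2.70, -2.62, -1.63, -2.94 and -1.90 at 6 Gy and -2.81, -3.11, -3.06 and -0.93 at 8.8 Gy. No irradiated array reached the level of a sham array. The probe (mm9 chr10:75412326-75412385, plus strand) was well above background on all 10 sham arrays, but on 1 of 5 Parp1-/- 6 Gy, 2 of 5 wild-type 6 Gy and 2 of 4 wild-type 8.8 Gy arrays, so the irradiated levels are near the limit of measurement. Against sham, the log2 difference was -4.39 (SE 0.39, 21.0-fold lower, adjusted p = 3.38e-07) in Parp1-/- blood at 6 Gy, -4.18 (SE 0.39, 18.2-fold lower, adjusted p = 4.36e-07) in wild-type blood at 6 Gy and -4.30 (SE 0.41, 19.7-fold lower, adjusted p = 5.87e-07) at 8.8 Gy.

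Cd79a log2 levels were -0.20, -0.35, -0.78, -1.41 and -1.35 on the Parp1-/- 6 Gy arrays, against 0.37, 1.60, 0.62, 2.01 and 1.60 on the Parp1-/- 0 Gy arrays. Wild-type arrays read 2.44, 2.08, 2.14, 1.84 and 2.30 at 0 Gy, 0.73, 0.06, -0.07, 0.31 and 0.85 at 6 Gy and -0.36, -0.15, -0.13 and -0.25 at 8.8 Gy. These are the levels of its brighter probe, which the files place at chr12:53180558-53180617, plus strand (mm9), on another chromosome than the second probe. The brighter probe was well above background on all 24 arrays, and each irradiated group lay wholly below its sham group. Irradiated minus sham was, in log2 units, -2.06 (SE 0.30, 4.16-fold lower, adjusted p = 6.17e-05) in Parp1-/- blood at 6 Gy, -1.78 (SE 0.30, 3.44-fold lower, adjusted p = 0.000417) in wild-type blood at 6 Gy and -2.38 (SE 0.32, 5.21-fold lower, adjusted p = 4.14e-05) at 8.8 Gy. The second probe gave log2 differences of -0.99, -0.18 and -0.90 in the same order, none of which passed the test. Cd79b log2 levels were 0.86, 1.45, 0.90, -0.04 and -1.45 on the Parp1-/- 6 Gy arrays, against 2.77, 3.68, 2.09, 4.29 and 3.80 on the Parp1-/- 0 Gy arrays. The wild-type levels were 4.12, 4.25, 4.14, 4.14 and 4.16 at 0 Gy, 2.63, 0.05, 0.68, 2.34 and 2.501 at 6 Gy and -0.11, 1.06, 1.16 and 1.35 at 8.8 Gy. The 5 wild-type sham arrays lay within a narrow band (mean 4.16 ± 0.05, SD), whereas the 6 Gy arrays split into replicates 1, 4 and 5 near the top and replicates 2 and 3 well below them. Cd79b differed from sham by a log2 difference of -2.98 (SE 0.53, 7.91-fold lower, adjusted p = 0.00046) in Parp1-/- blood at 6 Gy, -2.52 (SE 0.53, 5.74-fold lower, adjusted p = 0.00266) in wild-type blood at 6 Gy and -3.30 (SE 0.57, 9.83-fold lower, adjusted p = 0.000624) at 8.8 Gy. The Cd79b probe (mm9 chr11:106172780-106172839, minus strand) was also well above background on all arrays.

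**Figure D1:**
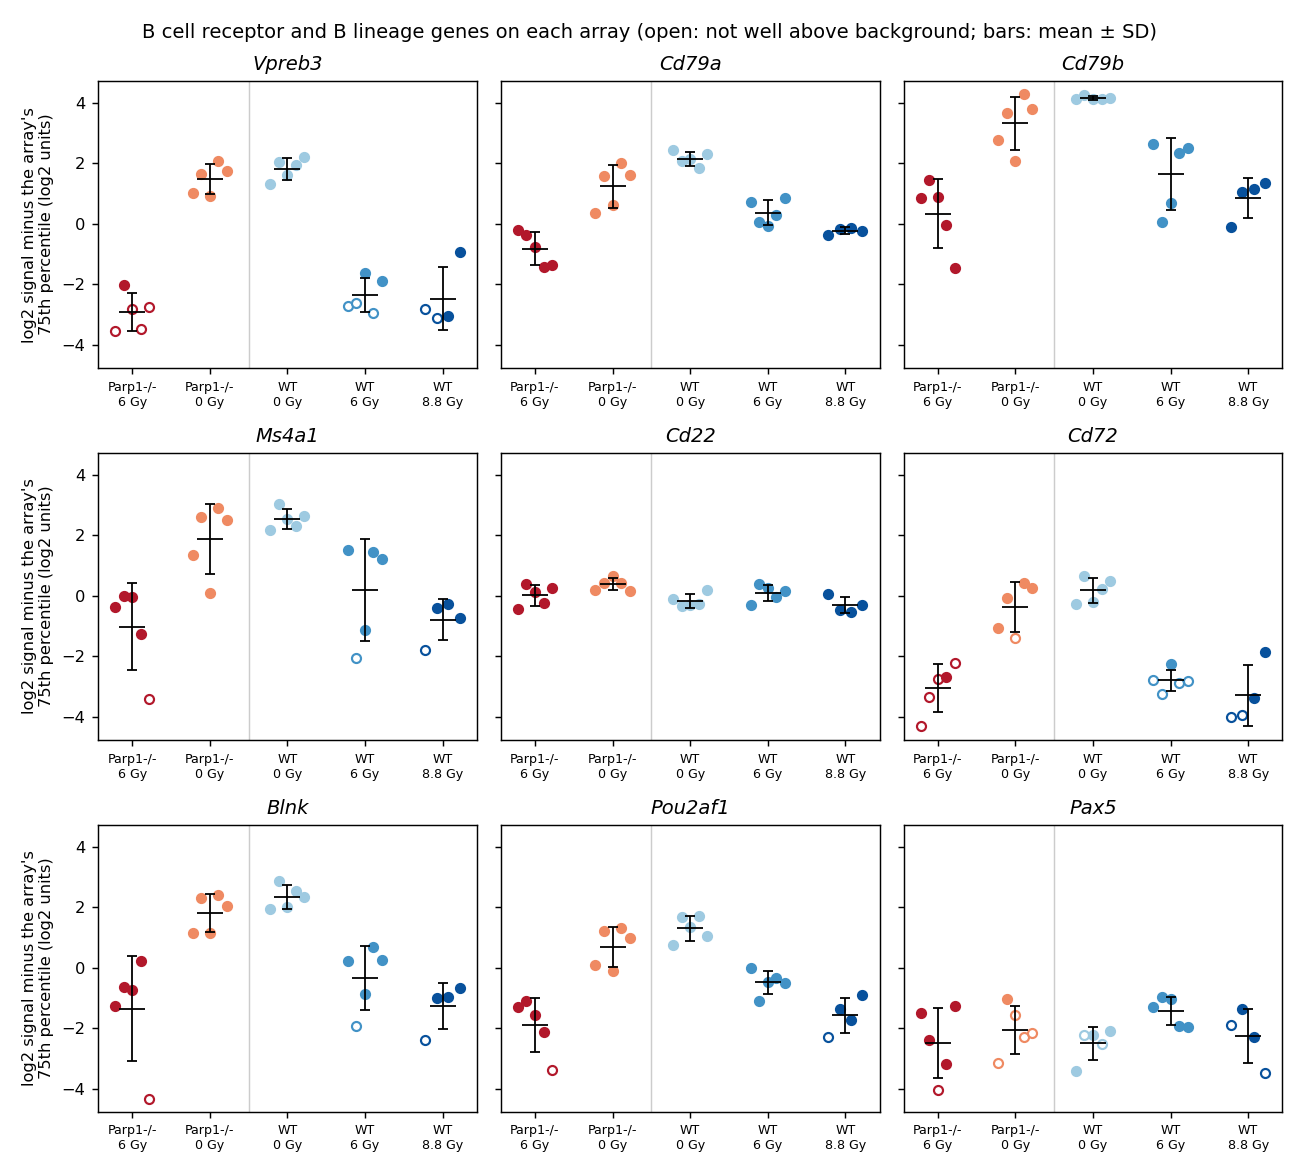
Log2 level (signal minus the array's 75th percentile) of each of the 9 genes on each of the 24 arrays, in 5 groups, with Parp1-/- 6 Gy and 0 Gy left of wild type at 0, 6 and 8.8 Gy. Open points were not well above background and bars give the mean ± SD. In 7 panels all irradiated points lie below the sham points of their genotype, and in the Cd22 and Pax5 panels they do not.

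Ms4a1 encodes CD20, a surface protein of mature B cells, and Cd72 and Cd22 encode receptors that dampen antigen receptor signals. Ms4a1 log2 levels were -0.39, -0.003, -0.05, -1.27 and -3.43 on the Parp1-/- 6 Gy arrays, against 1.35, 2.59, 0.08, 2.90 and 2.49 on the Parp1-/- 0 Gy arrays. On the wild-type arrays they were 2.17, 3.03, 2.53, 2.31 and 2.63 at 0 Gy, 1.52, -2.07, -1.14, 1.43 and 1.23 at 6 Gy and -1.78, -0.40, -0.27 and -0.72 at 8.8 Gy. Irradiated and sham groups did not overlap, but the highest Parp1-/- 6 Gy array lay just under the lowest Parp1-/- 0 Gy array. The log2 difference from sham was -2.91 (SE 0.70, 7.51-fold lower, adjusted p = 0.00448) in Parp1-/- blood at 6 Gy, -2.34 (SE 0.70, 5.06-fold lower, adjusted p = 0.0183) in wild-type blood at 6 Gy and -3.33 (SE 0.74, 10.1-fold lower, adjusted p = 0.00461) at 8.8 Gy. The wild-type 6 Gy call rested on single arrays, since the adjusted p was 0.0664 without wild-type 6 Gy replicate 2 (log2 difference -1.77) and 0.0597 without replicate 3 (-2.01). The Ms4a1 probe lies at mm9 chr19:11325367-11325426, minus strand.

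Cd72 log2 levels were -4.29, -3.35, -2.77, -2.69 and -2.23 on the Parp1-/- 6 Gy arrays, against -1.06, -0.06, -1.41, 0.43 and 0.24 on the Parp1-/- 0 Gy arrays. In wild-type blood levels were -0.27, 0.65, -0.20, 0.23 and 0.50 at 0 Gy, -2.77, -3.24, -2.26, -2.89 and -2.83 at 6 Gy and -4.02, -3.93, -3.37 and -1.85 at 8.8 Gy. Irradiated and sham arrays did not overlap. Against sham, the log2 difference was -2.69 (SE 0.43, 6.46-fold lower, adjusted p = 0.000147) in Parp1-/- blood at 6 Gy, -2.98 (SE 0.43, 7.89-fold lower, adjusted p = 8.95e-05) in wild-type blood at 6 Gy and -3.48 (SE 0.45, 11.1-fold lower, adjusted p = 3.21e-05) at 8.8 Gy. The probe (mm9 chr4:43460596-43460655, minus strand) was well above background on 1 of 5 Parp1-/- 6 Gy arrays, 4 of 5 Parp1-/- 0 Gy arrays, 5 of 5 wild-type 0 Gy arrays, 1 of 5 at 6 Gy and 2 of 4 at 8.8 Gy.

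Cd22 was the exception among the surface genes. Cd22 log2 levels were -0.45, 0.38, 0.13, -0.24 and 0.24 on the Parp1-/- 6 Gy arrays, against 0.20, 0.42, 0.66, 0.42 and 0.17 on the Parp1-/- 0 Gy arrays. Wild-type arrays read -0.11, -0.35, -0.32, -0.27 and 0.20 at 0 Gy, -0.30, 0.38, 0.26, -0.04 and 0.16 at 6 Gy and 0.04, -0.47, -0.55 and -0.30 at 8.8 Gy. Irradiated and sham arrays overlapped in both genotypes, and the probe was well above background on all 24 arrays. The log2 difference from sham was -0.36 (95% confidence interval -0.77 to 0.04, adjusted p = 0.188) in Parp1-/- blood at 6 Gy, 0.26 (95% confidence interval -0.15 to 0.67, adjusted p = 0.333) in wild-type blood at 6 Gy and -0.15 (95% confidence interval -0.58 to 0.28, adjusted p = 0.658) at 8.8 Gy. In this fit, the intervals leave out falls of the size seen in the other surface genes, for the signal of the 1 Cd22 probe. Whether that signal follows Cd22 RNA was not tested. The Cd22 probe (mm9 chr7:31651249-31651308, minus strand) holds 29 A and 17 C in 60 bases, a share of 76.7% that only 0.142% of the array's probes reach, and the part of its composition in the result was not tested.

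Blnk encodes the adaptor that links the receptor's kinases to phospholipase C, Pou2af1 the coactivator that works with OCT factors at octamer sites, and Pax5 the factor that sets B cell identity. Blnk log2 levels were -1.27, -0.65, -0.74, 0.22 and -4.33 on the Parp1-/- 6 Gy arrays, against 1.13, 2.30, 1.16, 2.39 and 2.03 on the Parp1-/- 0 Gy arrays. The wild-type levels were 1.92, 2.87, 2.001, 2.52 and 2.32 at 0 Gy, 0.22, -1.93, -0.89, 0.66 and 0.24 at 6 Gy and -2.39, -1.001, -0.99 and -0.69 at 8.8 Gy. The irradiated arrays lay below the sham arrays without overlap, with Parp1-/- 6 Gy replicate 5 far below the other 4 of its group. Irradiated minus sham was, in log2 units, -3.16 (SE 0.62, 8.92-fold lower, adjusted p = 0.000982) in Parp1-/- blood at 6 Gy, -2.66 (SE 0.62, 6.34-fold lower, adjusted p = 0.00461) in wild-type blood at 6 Gy and -3.59 (SE 0.65, 12.1-fold lower, adjusted p = 0.00103) at 8.8 Gy. The Blnk probe lies at mm9 chr19:41003426-41003485, minus strand.

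Pou2af1 log2 levels were -1.32, -1.12, -1.58, -2.12 and -3.37 on the Parp1-/- 6 Gy arrays, against 0.08, 1.21, -0.12, 1.29 and 0.98 on the Parp1-/- 0 Gy arrays. On the wild-type arrays they were 0.75, 1.66, 1.34, 1.70 and 1.05 at 0 Gy, -0.02, -1.10, -0.48, -0.35 and -0.51 at 6 Gy and -2.31, -1.36, -1.74 and -0.92 at 8.8 Gy. Here too no irradiated array reached its sham group. Pou2af1 differed from sham by a log2 difference of -2.59 (SE 0.38, 6.02-fold lower, adjusted p = 7.32e-05) in Parp1-/- blood at 6 Gy, -1.79 (SE 0.38, 3.46-fold lower, adjusted p = 0.00269) in wild-type blood at 6 Gy and -2.88 (SE 0.40, 7.37-fold lower, adjusted p = 7.71e-05) at 8.8 Gy. Its probe lies at mm9 chr9:51048121-51048180, plus strand. Pou2af1 was the gene whose level followed the mean of the other 8 most closely over the 24 arrays, with a mean absolute difference of 0.271 between centred log2 levels, against 1.17 for Cd22 and 1.48 for Pax5.

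Pax5 log2 levels were -1.50, -2.39, -4.06, -3.18 and -1.29 on the Parp1-/- 6 Gy arrays, against -3.17, -1.05, -1.58, -2.31 and -2.16 on the Parp1-/- 0 Gy arrays. In wild-type blood levels were -3.43, -2.24, -2.24, -2.54 and -2.11 at 0 Gy, -1.302, -0.96, -1.05, -1.93 and -1.96 at 6 Gy and -1.91, -1.36, -2.28 and -3.48 at 8.8 Gy. Wild-type 6 Gy arrays all lay above the wild-type 0 Gy arrays, as for 9.11% of all genes tested, while the other irradiated groups overlapped their sham groups. The log2 difference from sham was 1.07 (95% confidence interval 0.07 to 2.07, adjusted p = 0.102) in wild-type blood at 6 Gy, which did not pass the test. It was -0.43 (95% confidence interval -1.43 to 0.57, adjusted p = 0.544) in Parp1-/- blood at 6 Gy and 0.25 (95% confidence interval -0.82 to 1.31, adjusted p = 0.774) in wild-type blood at 8.8 Gy. The probe was dim, well above background on 4 of 5 Parp1-/- 6 Gy arrays, 1 of 5 Parp1-/- 0 Gy arrays, 3 of 5 wild-type 0 Gy arrays, 5 of 5 at 6 Gy and 2 of 4 at 8.8 Gy. These intervals are wide, and differences of the sizes they span are not excluded for Pax5 on these arrays.

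**Figure D2:**
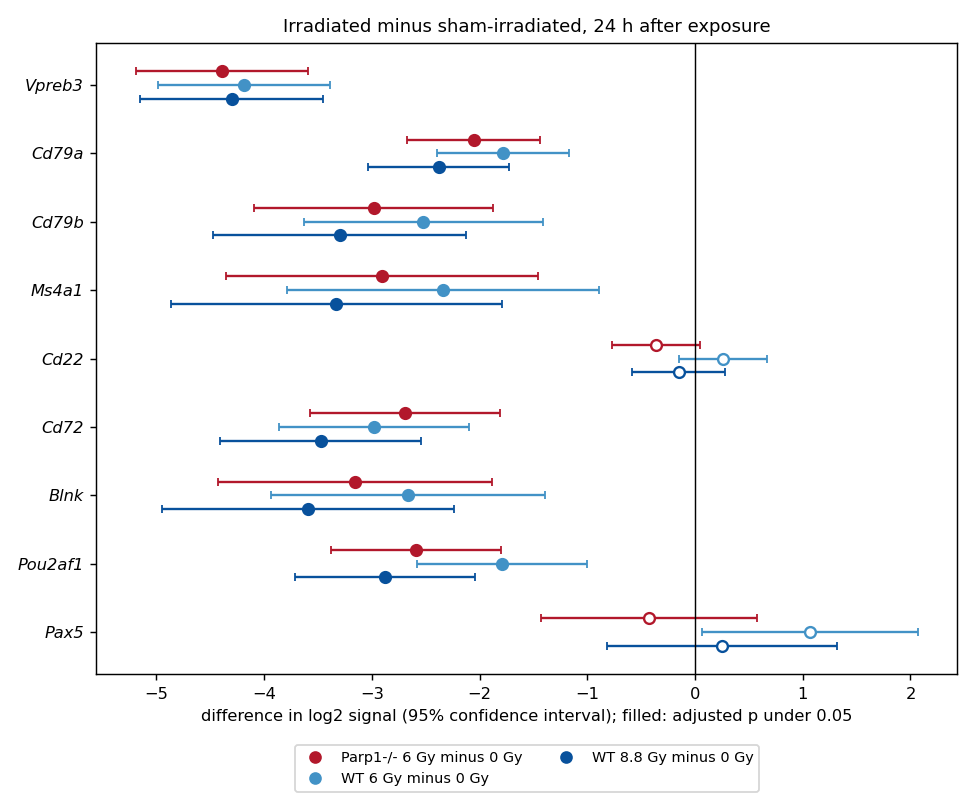
Difference in log2 signal between irradiated and sham-irradiated blood (x axis, with 95% confidence intervals) for each gene in 3 comparisons. Filled points passed an adjusted p of 0.05. Filled points lie left of 0 for 7 genes in all 3 comparisons, Vpreb3 farthest, while the open points of Cd22 and Pax5 lie near 0 or to its right.

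The 7 falls kept their direction but not all their calls when slide or scan day entered the fit as a fixed block. With slide as the block, 3 of 9 genes were called in Parp1-/- blood at 6 Gy, against 49 of all 13070 genes (0.375%), and 0 in each wild-type comparison, where 0 of all genes were called. The 7 log2 differences then ran from -6.05 to -1.67 in Parp1-/- blood at 6 Gy and, in wild-type blood, from -4.24 to -1.13 at 6 Gy and from -4.60 to -2.21 at 8.8 Gy. With scan day as the block, 4, 1 and 3 of the 9 were called in the same order, against 54, 16 and 23 of all genes (0.413%, 0.122% and 0.176%). The 7 log2 differences with that block ran from -6.05 to -1.67, from -4.86 to -1.56 and from -4.98 to -2.49. Irradiated wild-type arrays shared no slide or day with their sham arrays and are linked to them only through Parp1-/- 6 Gy arrays, so dose and scan day cannot be told apart there without those arrays. Only slide 9 held irradiated and sham arrays of 1 genotype, and there Parp1-/- 6 Gy replicate 5 lay below the mean of Parp1-/- 0 Gy replicates 1 and 2 for 8 of the 9 genes, with a median log2 difference of -4.02. Day 1 held these same arrays and no others. In Parp1-/- blood both block fits therefore return this contrast, with replicate 5 as the only irradiated array, and are not separate checks of it. Without the arrays labelled Parp1-/- 6 Gy replicate 1 and wild-type 8.8 Gy replicate 2, the counts stayed at 7 in each of the 3 comparisons. Leaving out the array labelled wild-type 8.8 Gy replicate 4 as well gave 7, 7 and 6, with Ms4a1 at 8.8 Gy at a log2 difference of -3.56 (adjusted p = 0.0583). With normexp background correction in place of the scanner's own, the 7 falls were smaller, between -1.93 and -1.17 in Parp1-/- blood at 6 Gy, between -2.09 and -1.15 in wild-type blood at 6 Gy and between -3.01 and -0.52 at 8.8 Gy, and all 7 were called. At 8.8 Gy 8 of the 9 were then called, so Cd22 or Pax5 gained a call there. That correction left the arrays with unequal spread, an SD of log2 levels between 1.12 and 1.74 on the 8.8 Gy arrays and between 1.37 and 2.18 on the others, against 2.31 to 2.83 with the scanner's, and the part of this in its values was not tested.

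Cd79a, Cd72 and Pax5 each had a second, dimmer probe. The files place the brighter Cd79a probe on another chromosome (mm9 chr12:53180558-53180617, plus strand) than the second one (mm9 chr7:25684357-25684614, plus strand, a span of 258 bases). The brighter probe holds the polyadenylation hexamer AATAAA and ends in 6 A, and the hexamer is also in the Blnk, Pou2af1 and Vpreb3 probes. The second Cd79a probe was well above background on 4 of 5 Parp1-/- 6 Gy, 4 of 5 Parp1-/- 0 Gy and all 14 wild-type arrays, and it was called in none of the 3 comparisons. Its log2 difference was -0.99 (SE 0.45, adjusted p = 0.109) in Parp1-/- blood at 6 Gy, -0.18 (SE 0.45, adjusted p = 0.79) in wild-type blood at 6 Gy and -0.90 (SE 0.47, adjusted p = 0.199) at 8.8 Gy. The size of the Cd79a fall thus depends on the probe. The second Cd72 probe overlaps the first and gave -3.01 (SE 0.40, adjusted p = 3.02e-05) in Parp1-/- blood at 6 Gy, -3.22 (SE 0.40, adjusted p = 2.31e-05) in wild-type blood at 6 Gy and -3.85 (SE 0.43, adjusted p = 5.11e-06) at 8.8 Gy. The second Pax5 probe was well above background on 1 Parp1-/- 6 Gy array only. The second Cd79a probe and the brighter Pax5 probe (mm9 chr4:44658421-44658480, minus strand), the probes on which those statements rest, read as follows.
Cd79a: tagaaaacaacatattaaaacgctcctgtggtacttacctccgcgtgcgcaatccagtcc
Pax5: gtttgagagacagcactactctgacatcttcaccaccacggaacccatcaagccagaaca

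**Figure D3:**
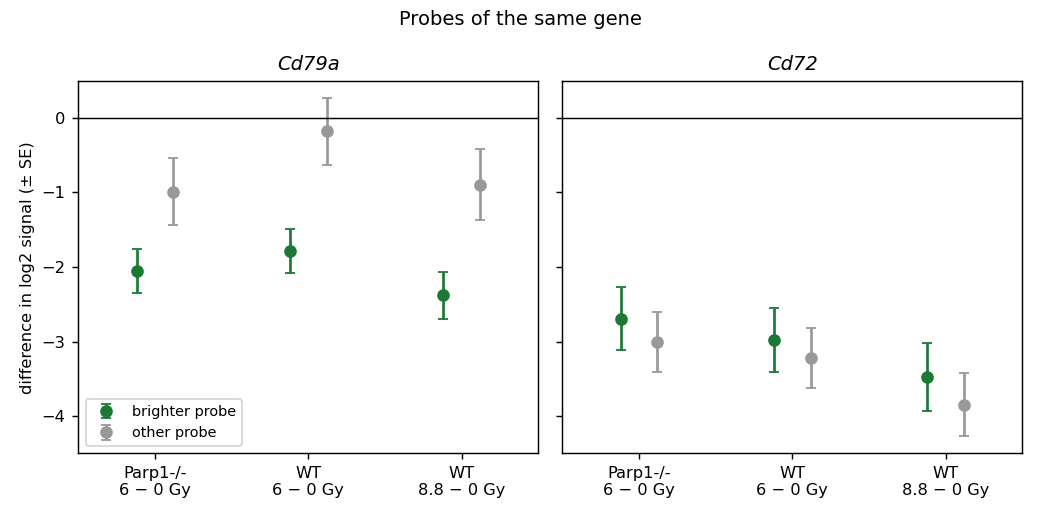
Difference in log2 signal from sham (y axis, ± SE) for the brighter and the other probe of Cd79a and of Cd72 in 3 comparisons. The Cd72 probes lie side by side, while the other Cd79a probe lies nearer to 0 than the brighter one in each comparison.

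Parp1-/- and wild-type blood were compared without irradiation, at the same dose, and at the doses of equal lethality. None of the 9 genes was called in any of these comparisons by limma. Without irradiation, 0.681% of all genes tested were called (0.635% higher and 0.0459% lower) and 0 of the 9. The sham arrays of the genotypes shared no slide or scan day, so genotype and scan day cannot be told apart in this comparison. At an unadjusted p under 0.05 were 2 of the 9 (22.2%) and 2678 of all genes (20.5%), which are nearly the same share. The log2 difference was -0.92 (95% confidence interval -1.53 to -0.30, adjusted p = 0.111) for Cd79a and 0.55 (95% confidence interval 0.14 to 0.95, adjusted p = 0.139) for Cd22, and the Parp1-/- 0 Gy and wild-type 0 Gy arrays overlapped for all 9 genes. Vpreb3 differed by -0.34 (95% confidence interval -1.14 to 0.46, adjusted p = 0.591) and Cd79b by -0.84 (95% confidence interval -1.94 to 0.27, adjusted p = 0.359). The Parp1-/- 0 Gy group was uneven, with replicates 1 and 3 as its lowest arrays for each of the 7 genes that fell after irradiation. Those arrays also had the smallest shares of probes well above background of all 24, 36.7% and 36.5%, and the part of that in their levels was not tested.

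At 6 Gy in both genotypes, 0.849% of all genes tested were called (0.352% higher and 0.497% lower) and 0 of the 9. At an unadjusted p under 0.05 were 4 of the 9 and 3053 of all genes (23.4%). All 9 differences were negative, although Vpreb3 and Cd72 were above 0 with quantile scaling or median centring, Cd22 with median centring or normexp, and Cd22 and Cd72 (both 0.04) without Parp1-/- 6 Gy replicate 1. Their median was -1.04, against -0.05 over all genes. The log2 difference was -1.19 (95% confidence interval -1.81 to -0.58, adjusted p = 0.0511) for Cd79a and -1.41 (95% confidence interval -2.20 to -0.62, adjusted p = 0.0593) for Pou2af1, and for these 2 genes every Parp1-/- 6 Gy array lay below every wild-type 6 Gy array, as for 2.3% of all genes tested. Neither passed the test, both lying close to its threshold. Without the array labelled Parp1-/- 6 Gy replicate 1, the adjusted p was 0.0246 for Cd79a (log2 difference -1.35) and 0.0351 for Pou2af1 (-1.56). Calls over all genes rose too. Without that array and wild-type 8.8 Gy replicate 2, 2 of the 9 and 489 of all genes were called, against 0 and 111 with every array. Cd79b differed by -1.299 (95% confidence interval -2.41 to -0.19, adjusted p = 0.145), Ms4a1 by -1.22 (95% confidence interval -2.67 to 0.23, adjusted p = 0.304) and Blnk by -1.02 (95% confidence interval -2.29 to 0.26, adjusted p = 0.336). For Vpreb3 the difference was -0.56 (95% confidence interval -1.35 to 0.24, adjusted p = 0.411). Among the arrays scanned on day 3, the mean of 3 Parp1-/- 6 Gy arrays lay below that of the 5 wild-type 6 Gy arrays for 9 of 9 genes, with a median log2 difference of -0.57, and none was called. Those 3 arrays include replicate 1, on which Parp1 was well above background against its label. Arrays on the same slide were less even, with 6 of 9 genes lower on slide 2 (median -0.25) and 7 of 9 on slide 4 (median -0.69). With arrays centred on their medians, the difference of all genes shifted to 0.59 and the median of the 9 genes to -0.40.

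At the doses of equal lethality, 6 Gy in Parp1-/- and 8.8 Gy in wild-type mice, no gene of the 13070 was called (0%), with 267 genes (2.04%) and 0 of the 9 at an unadjusted p under 0.05. The groups overlapped for all 9 genes. The log2 difference was -0.44 for Vpreb3 (95% confidence interval -1.28 to 0.41), -0.59 for Cd79a (-1.25 to 0.06) and -0.52 for Cd79b (-1.70 to 0.65). It was -0.23 for Ms4a1 (-1.77 to 1.304), 0.23 for Cd72 (-0.71 to 1.16) and -0.09 for Blnk (-1.44 to 1.26). Pou2af1 differed by -0.32 (-1.15 to 0.52), Cd22 by 0.33 (-0.10 to 0.76) and Pax5 by -0.22 (-1.29 to 0.84). Several of these intervals reach beyond 1 log2 unit, so that a difference of that size is not excluded for those genes. These groups hold 1 each of the 2 nearly equal arrays (SD of log2 differences 0.166, against a median of 0.901 over pairs), and Parp1 was well above background on Parp1-/- 6 Gy replicate 1 but not on wild-type 8.8 Gy replicate 4, against their labels. Without the nearly equal pair, 0 of the 9 and 0 of all genes were called, 7 of the 9 differences were negative, and the 9 ran from -0.73 for Cd79a to 0.40 for Cd22, with a median of -0.26. Leaving out wild-type 8.8 Gy replicate 4 as well, 0 of the 9 and 1 of all genes were called, 5 were negative and the 9 ran from -0.73 for Cd79a to 0.94 for Cd72, Vpreb3 turning to 0.18. With normexp background correction 4 of the 9 were called lower in Parp1-/- blood, Vpreb3, Cd72, Pou2af1 and Pax5. Of all 13070 genes, 2877 were called lower and 2913 higher under that correction. Cd72 changed its sign, to -0.77, with the unequal spread of arrays given above.

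Between the wild-type doses, 8.8 Gy against 6 Gy, again no gene was called (0%), with 2368 genes (18.1%) and 1 of the 9 at an unadjusted p under 0.05. All 9 differences were negative, although Vpreb3 was above 0 with quantile scaling, median centring or normexp, Cd72 with quantile scaling or normexp, Cd22 with median centring, and Pou2af1 and Pax5 with normexp. Vpreb3 was also above 0 without 8.8 Gy replicate 2 (0.09), 8.8 Gy replicate 3 (0.08) or 6 Gy replicate 3 (0.06). Their median was -0.78, against -0.08 over all genes. Pou2af1 differed by -1.09 (95% confidence interval -1.92 to -0.26, adjusted p = 0.175) and Cd79a by -0.60 (95% confidence interval -1.25 to 0.06, adjusted p = 0.315), and Cd79a was the gene among the 9 whose 8.8 Gy arrays all lay below the 6 Gy arrays, as for 3.06% of all genes tested. Without the nearly equal pair, 0 of the 9 and 0 of all genes were called, with differences from -1.16 for Pou2af1 to 0.09 for Vpreb3 and a median of -0.84. Without 8.8 Gy replicate 4 as well, again 0 and 0 were called, with differences from -1.53 for Pou2af1 to -0.35 for Cd22 and a median of -0.90. Vpreb3 differed by -0.12 (95% confidence interval -0.97 to 0.73, adjusted p = 0.896).

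The responses of the genotypes were also set against each other. They use the sham arrays of both genotypes, which shared no slide or scan day, so genotype and scan day are mixed in these differences as well. For the difference between the response of Parp1-/- blood to 6 Gy and that of wild-type blood to 6 Gy, 6.56% of all genes tested were called (0.903% higher and 5.65% lower) and 0 of the 9. At an unadjusted p under 0.05 were 2 of the 9 (22.2%) and 3322 of all genes (25.4%), so the share among the 9 was no higher than over all genes. The difference of responses was -1.50 (95% confidence interval -2.92 to -0.08, adjusted p = 0.171) for Pax5 and -0.62 (95% confidence interval -1.199 to -0.05, adjusted p = 0.158) for Cd22, and neither passed the test. For Vpreb3 it was -0.21 (95% confidence interval -1.34 to 0.92, adjusted p = 0.833) and for Cd79a -0.27 (95% confidence interval -1.14 to 0.60, adjusted p = 0.711). Against the wild-type response to 8.8 Gy no gene was called (0%), with 1368 genes (10.5%) and 0 of the 9 at an unadjusted p under 0.05, and the 9 values ran from -0.68 to 0.78.

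**Figure D4:**
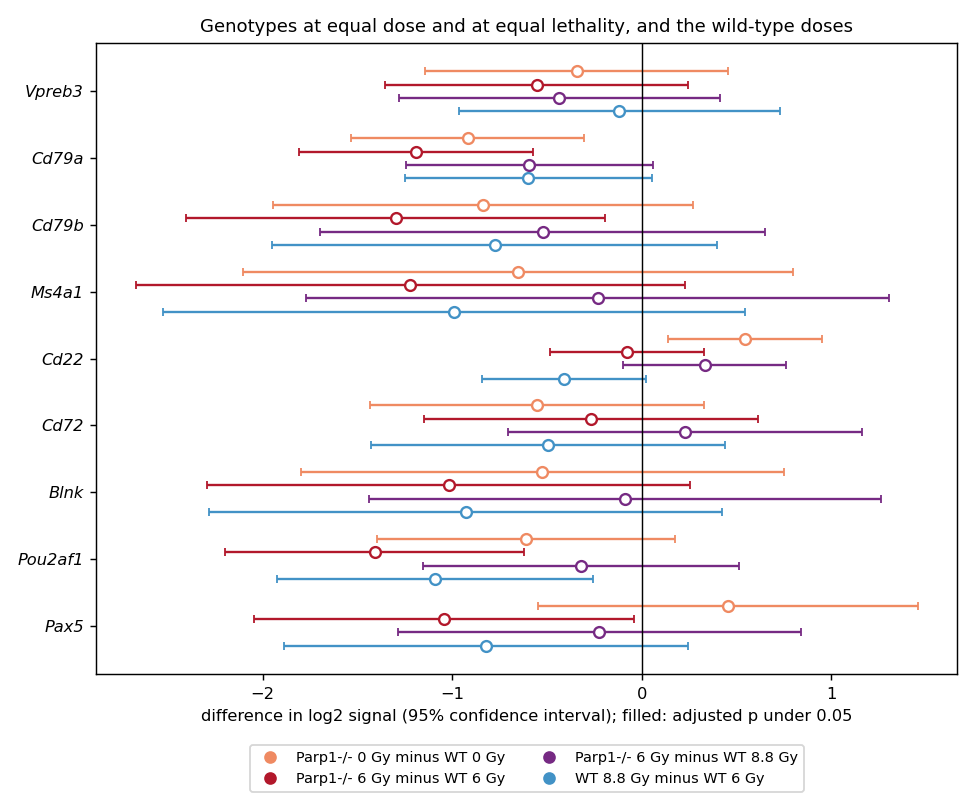
Difference in log2 signal (x axis, with 95% confidence intervals) of each gene for Parp1-/- minus wild type at 0 Gy, at 6 Gy and at 6 against 8.8 Gy, and for wild type at 8.8 minus 6 Gy. All points are open, since none passed an adjusted p of 0.05. The intervals of Cd79a, Cd79b, Pou2af1 and Pax5 lie left of 0 for Parp1-/- minus wild type at 6 Gy.

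The 9 genes did not vary as 1 block. After centring each gene on its own mean, Cd79b and Ms4a1 were the closest pair over the 24 arrays, with a mean absolute difference of 0.296 log2 units, followed by Cd79b and Pou2af1 at 0.387. Vpreb3 and Pax5 were the farthest apart, at 2.28. Single arrays ordered the genes differently. Parp1-/- 6 Gy replicate 5 was the lowest array of its group for Cd79b, Ms4a1, Blnk and Pou2af1 and the highest of its group for Cd72 and Pax5. Wild-type 6 Gy replicates 2 and 3 were the lowest of their group for Cd79b, Ms4a1 and Blnk, whereas replicate 3 was the highest for Vpreb3. Over the mean of the 9 genes, the Parp1-/- 6 Gy arrays lay at -1.47 ± 0.49 and the Parp1-/- 0 Gy arrays at 0.93 ± 0.60 (SD, n = 5 each). The wild-type arrays lay at 1.31 ± 0.22 at 0 Gy (n = 5), -0.57 ± 0.44 at 6 Gy (n = 5) and -1.26 ± 0.36 at 8.8 Gy (n = 4).

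The 8 genes whose levels were nearest to the mean of the 9 over the 24 arrays were Cxcr5, Spib, H2-Ob, Arl5c, Tdrp, Acp5, Cd3g and Gm6756. Their mean absolute differences of centred log2 levels ran from 0.325 for Cxcr5 to 0.376 for Gm6756, against a median of 1.19 over all genes. Cxcr5, the receptor that draws B cells to follicles, had log2 differences from sham of -2.62, -1.54 and -2.22 in Parp1-/- blood at 6 Gy and in wild-type blood at 6 and 8.8 Gy. Cd3g, a chain of the T cell receptor complex, had -1.81, -1.42 and -2.58 in the same order. Nearness here describes the arrays, which share dose, slide and scan day.

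Other B cell genes fell as well, but not all of them. Of 21 tested genes of a list of B cell surface and lineage genes, 14 fell and 1 rose in Parp1-/- blood at 6 Gy, 11 fell and 1 rose in wild-type blood at 6 Gy, and 12 fell and 0 rose at 8.8 Gy. The list medians were -1.43, -1.34 and -1.56. Among all genes tested, 10.6%, 10.7% and 8.87% were called lower and 12.2%, 15.8% and 7.25% higher in the same order. H2-Ob, a chain of the class II modulator H2-O, differed by -2.15, -2.14 and -2.78 in this order, and Spib, an ETS factor of B cells and plasmacytoid dendritic cells, by -2.87, -2.54 and -3.16. Fcmr, the IgM Fc receptor, differed by -3.07, -3.40 and -3.44. H2-Ob, Spib and Fcmr passed the test in all 3 comparisons, with adjusted p of at most 0.000298. Siglecg, an inhibitory lectin of B cells from the family of Cd22, rose in wild-type blood at 6 Gy (log2 difference 0.91, adjusted p = 0.0435) and fell in Parp1-/- blood at 6 Gy (log2 difference -0.97, adjusted p = 0.0352). The difference between those responses was called for Siglecg (-1.87, 95% confidence interval -2.82 to -0.92, adjusted p = 0.032), and it was the only listed B cell gene called there, where 6.56% of all genes tested were called. Ralgps2 was the gene that rose in Parp1-/- blood (log2 difference 0.94, adjusted p = 0.00673).

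The intracellular relay of the receptor carries its signal from the kinases to NF-kappaB and calcium. Of 16 tested relay genes, 2 fell and 6 rose in Parp1-/- blood at 6 Gy, 2 fell and 1 rose in wild-type blood at 6 Gy, and 2 fell and 3 rose at 8.8 Gy, with list medians of 0.50, -0.04 and 0.39. The share that fell, 2 of 16 each time, was near that of all genes tested (10.6%, 10.7% and 8.87% called lower), and 12.2%, 15.8% and 7.25% of all genes were called higher. Malt1, a protease on the way to NF-kappaB, fell in all 3 comparisons, with log2 differences of -1.06, -1.53 and -1.64. Dapp1, an adaptor recruited by PI3-kinase products, rose in all 3 comparisons, by 1.70, 0.99 and 1.06. Cd81, a tetraspanin of the cell surface that other blood cells also carry, differed by 1.2, 0.33 and 1.06, of which the wild-type 6 Gy value did not pass the test. Of 8 tested brakes of the signal, 1 fell (Cd5) and 1 rose (Pirb) in each comparison, Cd5 by -2.04, -1.88 and -2.45 and Pirb by 1.49, 0.99 and 1.07. Cd5 is also a T cell gene, and Pirb is strong in myeloid cells. Inpp5d, the lipid phosphatase SHIP, had 0.62, -0.35 and 0.61 and Cblb, a ubiquitin ligase, -0.56, 1.23 and 0.71, none of which passed the test.

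Of 16 tested B lineage transcription factors, 6 fell and 1 rose in Parp1-/- blood at 6 Gy, and 7 fell and 0 rose in wild-type blood at 6 Gy, and 8 fell and 0 rose at 8.8 Gy, with medians of -0.83, -0.79 and -0.85. Called lower among all genes tested were 10.6%, 10.7% and 8.87%, and higher 12.2%, 15.8% and 7.25%, in the same order. Irf8, shared with monocytes and dendritic cells, fell by 1.45, 1.96 and 1.97 on the log2 scale. Ebf1, which sets the B lineage together with Pax5, was well above background on no array of either 6 Gy group. Among sham arrays it was so on 1 of 5 Parp1-/- and 4 of 5 wild-type ones. In wild-type blood at 6 Gy it was at least 1.44-fold lower than sham (limma adjusted p = 0.000375 for the signals as measured). In Parp1-/- blood the value was 1.31-fold (limma adjusted p = 0.000511 for the signals as measured). That is not a firm bound, since its sham arrays were mostly not well above background either. At 8.8 Gy Ebf1 was well above background on 1 of 4 arrays, lower than sham (log2 difference -2.56, adjusted p = 0.000614). Bcl11a, a zinc finger factor of lymphoid progenitors, differed by -1.65, -0.88 and -2.05 and Myb, a progenitor factor, by -1.14, -0.57 and -1.33, and for both the wild-type 6 Gy value did not pass the test. Myb was well above background on no Parp1-/- 6 Gy array and on 1 of 5 Parp1-/- 0 Gy arrays, so its 1.76-fold there is not a firm lower bound either.

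Of 5 tested B cell precursor genes, Il7r, the receptor chain for interleukin 7 that T cells also carry, fell in all 3 comparisons, by 1.26, 1.35 and 1.73 on the log2 scale. Bst1 rose in Parp1-/- blood at 6 Gy (log2 difference 1.72, adjusted p = 0.0272) and in wild-type blood at 6 Gy (log2 difference 1.70, adjusted p = 0.0279), and Cd93 in Parp1-/- blood (log2 difference 1.49, adjusted p = 0.0367), both of which myeloid cells also express. Dntt, the enzyme that adds bases at receptor gene joints, had -1.12, -0.10 and -0.93, none of which passed the test. Of 6 tested plasma cell genes, Mzb1, a chaperone of antibody assembly, fell in Parp1-/- blood at 6 Gy (log2 difference -1.12, adjusted p = 0.00683) and in wild-type blood at 8.8 Gy (log2 difference -1.03, adjusted p = 0.0232). It was the only listed B cell gene called between Parp1-/- and wild-type blood at 6 Gy (log2 difference -1.62, adjusted p = 0.0242), where 0.849% of all genes tested were called. Prdm1, the plasma cell factor BLIMP1, fell in wild-type blood at 6 Gy, where it was well above background on no array and at least 1.15-fold lower (adjusted p = 0.000317), and at 8.8 Gy (log2 difference -1.23, adjusted p = 0.0206). Edem1, of endoplasmic reticulum quality control, rose in Parp1-/- blood (log2 difference 0.77, adjusted p = 0.0375), and Jchain, which joins IgM and IgA, had -0.82, -0.03 and -0.93 with no call.

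T cell markers moved the same way as the B cell genes. Of 14 tested T cell markers, 12 fell in Parp1-/- blood at 6 Gy, 10 in wild-type blood at 6 Gy and 12 at 8.8 Gy, and 0 rose, with medians of -1.62, -1.23 and -1.54. The shares of all genes called lower were 10.6%, 10.7% and 8.87%. Cd3d, a chain of the T cell receptor complex, differed by -1.75, -1.26 and -2.27. Summed over the list, T cell marker levels relative to the 75th percentile were 52.6 to 89.2 in Parp1-/- 6 Gy arrays and 121 to 266 in Parp1-/- 0 Gy arrays. They were 158 to 259 in wild-type arrays at 0 Gy, 68.3 to 122 at 6 Gy and 62.2 to 85.2 at 8.8 Gy. The part of these markers in the levels of the 9 genes was not tested.

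Markers of the other blood cells did not fall as a group with the B cell genes, except those of basophils and red cells in part. Over all genes, 10.6% were called lower and 12.2% higher in Parp1-/- blood at 6 Gy. In wild-type blood these shares were 10.7% and 15.8% at 6 Gy and 8.87% and 7.25% at 8.8 Gy. With lists this short, a single call is near these shares. NK cell markers (7 tested) had 2 lower and 1 higher in Parp1-/- blood at 6 Gy, 0 and 0 in wild-type blood at 6 Gy and 1 and 0 at 8.8 Gy, and Ncr1 had 0.56, 0.52 and 0.15 without a call. Neutrophil markers (10 tested) had 1 lower and 1 higher, 0 and 3, and 0 and 4 in this order, with S100a8 higher in wild-type blood at 6 Gy (log2 difference 1.22, adjusted p = 0.0225). Monocyte markers (9 tested) had 1 lower and 3 higher, 0 and 1, and 1 and 1, with no call for Csf1r (-0.14, 0.39 and 0.30). Plasmacytoid dendritic cell markers (6 tested) had 2, 1 and 1 lower and 0 higher, with no call for Siglech (-0.72, 0.49 and 0.10). Platelet markers (8 tested) had 2, 0 and 3 higher and 0 lower, with no call for Pf4 (0.91, 0.83 and 0.80). Red-cell markers (9 tested) had 5, 5 and 3 lower and 0 higher, with no call for Alas2 (-0.43, -0.01 and 0.14). Basophil markers (4 tested) had 2 lower and 1 higher each time, Mcpt8 falling to a level not well above background in both 6 Gy groups, at least 3.48-fold lower in Parp1-/- and 3.25-fold lower in wild-type blood. Hepatocyte markers (8 tested) had no call, and Alb had 2.92, -1.50 and 2.21 with SE above 3. Of 5 tested cell cycle genes, 3, 3 and 2 fell.

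**Figure D5:**
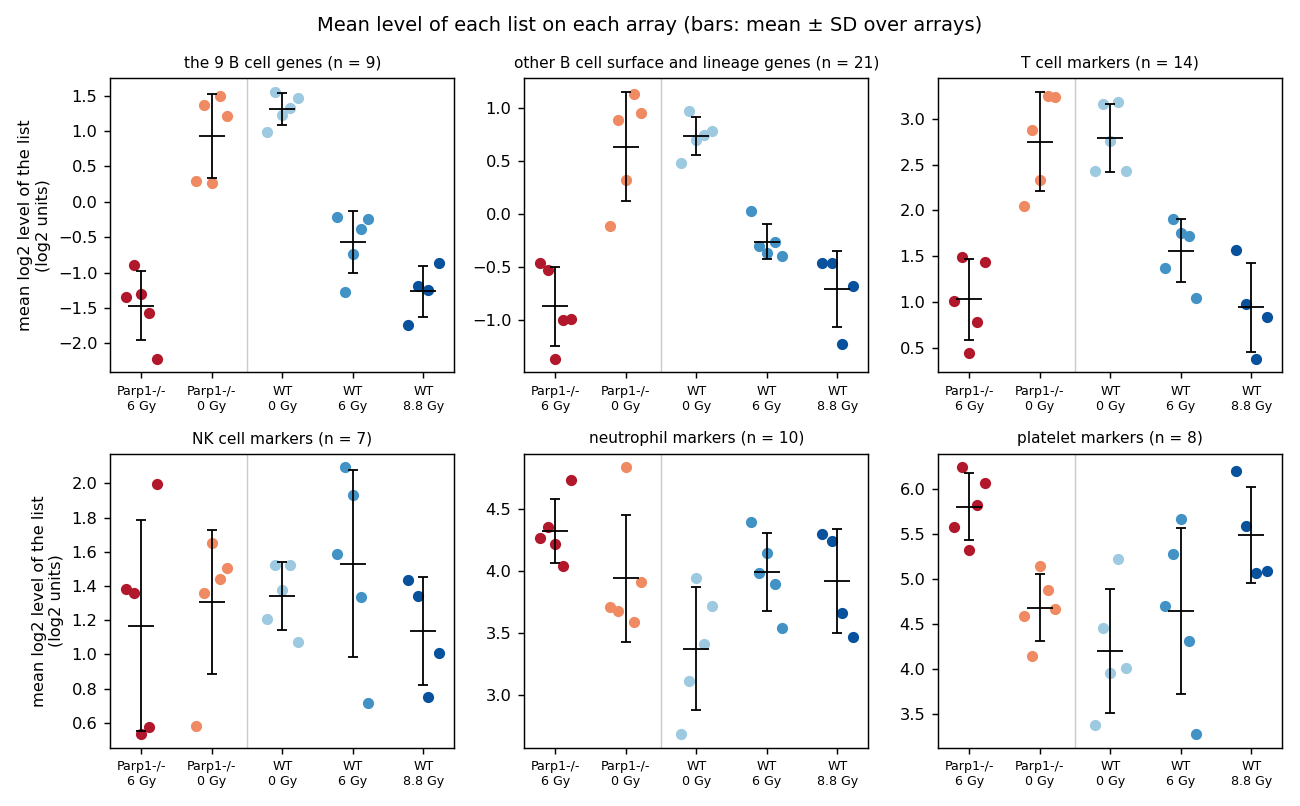
Mean log2 level (y axis) of the 9 B cell genes and of 5 marker lists on each array, in 5 groups, with bars for the mean ± SD over arrays. The 9 genes, the other B cell genes and the T cell markers lie lower on irradiated than on sham arrays, while NK cell and neutrophil markers overlap between irradiated and sham arrays of each genotype.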

How the data were processed

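Whole-blood RNA, taken into PAXgene solution and depleted of globin RNA per the labels' protocols, was measured on 24 arrays. The deposited scanner files hold the authors' spot intensities on a linear scale, background-subtracted with Agilent Feature Extraction 11.5.1 per the file headers, with that program's other marks for spots well above background, saturated or outlying. The authors' deposited table of log2 values differs from log2 of the processed signal by 1 constant for each array, so scale and direction are known and the centring constant is not explained. Its column medians were 7.83, 7.70, 8.06, 7.88 and 7.86 for Parp1-/- 6 Gy, 8.09, 7.66, 8.01, 7.69 and 7.63 for Parp1-/- 0 Gy, 7.94, 7.68, 7.73, 7.66 and 7.80 for wild-type 0 Gy, 7.75, 7.86, 7.76, 7.65 and 7.70 for 6 Gy and 7.71, 7.85, 8.04 and 7.97 for 8.8 Gy. Of the 9 genes it holds 5 (Cd79a, Cd79b, Ms4a1, Blnk and Pou2af1).

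From the 43020 non-control spots of 44397, outlier spots were left out, log2 signals were set against each array's 75th percentile, and spots of a probe were averaged into 39429 probes. Probes were named through RefSeq accessions (27508) or the files (5747), and 6174 stayed unnamed. The probe with the highest mean stood for a gene. Genes tested had 4 or more arrays of some group well above background. Testing used limma 3.58.1 (R 4.3.3) on the 5 group means, two-sided, with Benjamini-Hochberg adjustment over all 13070 genes within each of 9 comparisons, and checked on simulated data. SE is limma's moderated standard error. The number of arrays sets the precision. Where no array of a group was well above background, a fold is a lower bound, taken against that group's mean of, per array, the gene's own signal or the lowest detected signal, whichever was higher. The mean of the brighter group was taken over all its arrays, detected or not, so the bound is firm only where that group was detected.

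The 9 genes and all lists were chosen with earlier results of these data known. Named besides the 9 were, per B cell list, the 4 tested genes with the smallest adjusted p in wild-type blood at 8.8 Gy, the first tested marker of each other cell type, the 8 genes nearest to the 9 in pattern, and Parp1. Some genes that this rule names are not reported here. Further genes are named where a count is small and were chosen after their values were seen. Alternatives were other background corrections, scalings, filters, probes, blocks, and left-out arrays. Replicate numbers were not treated as pairs: same-numbered arrays of 2 groups had correlations of their deviations from -0.77 to 0.749, with both signs in every comparison. Coordinates of probes are the files' mm9 ones. Immunoglobulin genes are not analysed here.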

Additional observations from a re-analysis of the deposited data

Results flagged for a closer look

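In 2 of 55 sets of 4 or 5 arrays, an array stood far from the others. The sets were those of Parp1, each of the 9 genes and their mean. Chance marks about 1 in 20 independent sets, and 2 of 55 is not above that rate. These sets share arrays and include the mean of the 9 genes, so they are not independent. The rate therefore decides nothing about a single array. Both concern 1 array, labelled wild-type and 8.8 Gy, replicate 4. Vpreb3 was -0.93 there, with the next array of its group at -2.81, so this array was the highest of 4. Parp1 was -3.94 there, with the next array at -1.58, so it was the lowest of 4. Without this array and the nearly equal pair, Vpreb3 was still called at 8.8 Gy. For Siglecg the difference between the responses of the genotypes to 6 Gy was called, at -1.87 by the interaction test. There 6.56% of all genes tested were called, and 0 with normexp. The sham arrays of the genotypes shared no slide or scan day, so genotype and scan day are mixed in this value.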

How the results depend on the processing

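Of 1476 values of the 9 genes recomputed under other settings, 1415 kept direction and call, 35 lost and 22 gained a call, and 4 reversed. All 4 reversals came with normexp: Cd72 at -0.77 in Parp1-/- 6 Gy against wild-type 8.8 Gy, Vpreb3 at 0.66 and Cd72 at 0.68 in wild-type 8.8 against 6 Gy, and Cd72 at -0.65 for the difference of responses with 8.8 Gy. Normexp, under which spread differed between arrays, also changed counts of called genes among the 9 from 0 to 4, 2 and 2 in those comparisons, and called 2877 genes lower and 2913 higher of all genes in Parp1-/- 6 Gy against wild-type 8.8 Gy, against 0 and 0 with the scanner's correction. Of all genes it called 1346 lower and 825 higher in wild-type 8.8 against 6 Gy. For the difference of responses with 8.8 Gy it called 3527 and 2787, again against 0 and 0. For Parp1-/- against wild-type blood at 6 Gy, the count of 0 became 1 with quantile scaling, the mean of a gene's probes or the authors' table, and 2 with the 75th percentile over detected probes, no filter, slide as a random block, the hepatocyte level as a covariate, or the nearly equal arrays left out together, with or without wild-type 8.8 Gy replicate 4. Leaving out 1 array gave 0 to 2 there, 6 to 7 in wild-type 6 Gy against 0 Gy, and 7 in both other irradiation comparisons. Genes detected on all arrays include 3 of the 9, of which 2 were called per irradiation comparison. Slide as a fixed block gave 3, 0 and 0 and scan day 4, 1 and 3 (Parp1-/- 6 Gy, wild-type 6 Gy, 8.8 Gy), while all genes called went to 49, 0 and 0 with slide and 54, 16 and 23 with scan day, against 2981, 3462 and 2107 without a block. The cause was not tested. With replicate number as a block (the numbers do not pair the samples), 7 were called in each irradiation comparison and 0 elsewhere. The count against sham rose to 8 at 8.8 Gy with normexp, and to 8 in wild-type blood at 6 Gy with the mean of a gene's probes. Cd22 or Pax5 thus gained a call under those settings. Median centring turned the split of all called genes to 5525 lower and 545 higher in wild-type blood at 6 Gy, against 1393 and 2069. At 8.8 Gy against 0 Gy it gave 1889 and 502, against 1159 and 948, and for the difference of responses at 6 Gy 444 and 3437 (quantile scaling 455 and 205), against 739 and 118. Scaling also moved the split at 6 Gy between genotypes (135 lower and 187 higher with quantile scaling, 793 and 163 with the percentile over detected probes, 172 and 3629 with median centring, 2 and 10 with normexp, against 65 and 46). Leaving out wild-type 8.8 Gy replicate 4 with the pair, and using the second probes (6 genes called per irradiation comparison), were chosen after seeing the data. Dim probes (Vpreb3, Cd72, Pax5) limit the low levels.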
